A study of Mus musculus with 6 samples.

Results

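The 44 genes described here encode the machinery that copies DNA and the enzymes that supply its building blocks. They were chosen by gene symbol, with earlier results of these data known. All 44 were found among the 14912 genes of the deposited table. They comprise the 6 subunits of the MCM helicase, its activators, the origin licensing factors, the kinase that fires origins, the sliding clamp and its loader, the replicative polymerases, the enzymes that join lagging-strand fragments, replication protein A, 4 enzymes of deoxynucleotide supply and the transcription factor gene E2f1. Expression was measured in bulk RNA from bone marrow cultures of wild-type C57BL/6J mice, labelled as bone marrow derived dendritic cells. The titles of all 6 samples begin with tol_DC. All cultures were grown in FLT3LG (50 ng/ml, renewed on day 7), the cytokine on which dendritic cell precursors depend. The 3 midkine samples were also given recombinant human midkine (MIDKINE, 10 ng/ml), a secreted protein that binds heparin, for the last 2 days, and the 3 control samples did not. Sex and age of the mice are not given in the labels. The labels also do not say whether replicates came from separate mice or cultures, so every p-value rests on the spread among these 6 libraries, and that spread may be technical.

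DNA replication starts at origins, where the origin recognition complex, Cdc6 and Cdt1 load the MCM helicase as an inactive ring. The Cdc7-Dbf4 kinase, Cdc45, the GINS complex and Mcm10 then turn the ring into a moving helicase, and polymerase alpha-primase, polymerase delta and polymerase epsilon copy the strands behind it. E2F factors, held in check by the retinoblastoma protein, switch on many of these genes as cells enter S phase. In bone marrow cultures, dividing progenitors carry this programme, while most differentiated dendritic cells have left the cycle.

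The replication genes were lower in the midkine cultures. Of the 44 genes, all of which passed the minimum mean of 10 normalised read counts, 36 were called lower, none was called higher and 8 were not called (limma, Benjamini-Hochberg adjusted p under 0.05 over all 11844 genes tested). Among all tested genes, 21.8% were called lower. The median log2 fold change of the 44 genes was -0.85, with an interquartile range from -1.08 to -0.59, and the median of all tested genes was -0.01. No replication gene had a fold change above 0, and edgeR and DESeq2 likewise called none higher. The fall was at least 2-fold for 15 of the 44, against 3.84% of all tested genes. For 40 of the 44 every midkine value lay below every control value, which was so for 26.2% of all tested genes.

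Summed over the 44 genes, the control libraries held 12339, 12531 and 12348 normalised read counts and the midkine libraries 7440, 6860 and 6922. The control sums lay close together and well above all of the midkine sums. As a share of all counts in a library, the 44 genes took 0.236%, 0.254% and 0.233% in control and 0.116%, 0.116% and 0.112% in midkine cultures. With ribosomal RNA left out of the totals the mean shares were 0.297% ± 0.00369 and 0.160% ± 0.00591 (SD, n = 3 each). Within the midkine group the median deviation of the 44 genes from their group mean was 0.07, -0.04 and -0.01 on the log2 scale in replicates 1, 2 and 3. Replicate 1 was thus slightly the highest, with 29 of the 44 genes above the group mean, against 17 and 21 in replicates 2 and 3. In each midkine library 43 or all 44 genes lay below the control mean.

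**Figure D1:**
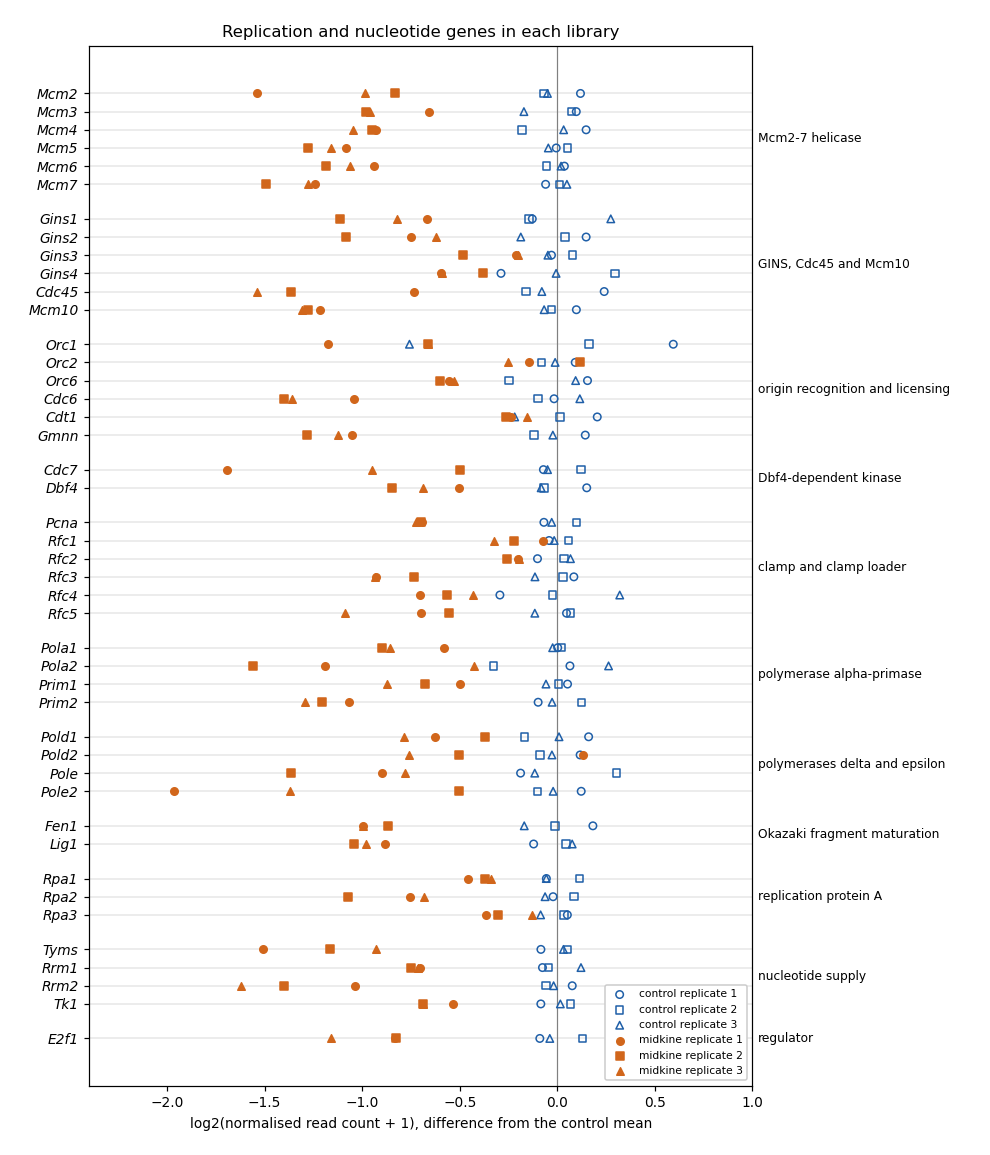
Each of the 44 genes (rows, ordered by complex) in each of the 6 libraries, as the difference of log2(normalised read count + 1) from the control mean (x axis); open blue symbols are control and filled orange symbols midkine replicates. The 3 midkine symbols lie left of the 3 control symbols in 40 rows, and the groups overlap for Orc1, Orc2, Cdt1 and Pold2.

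Libraries held 5089338 to 5532055 reads in control and 5685055 to 6453768 in midkine cultures. The replication genes had between 6 and 2308 reads in a library, and 34 of the 44 had at least 30 reads in every library. In bulk RNA, fewer dividing cells and less RNA of these genes per cell cannot be told apart. The 7 markers common to dendritic cells were present in all 6 libraries, with sums of 69873 to 75051 in control and 66073 to 71209 in midkine cultures. Of these, Cst3 (-0.64 on the log2 scale) and Zbtb46 (-0.47) were called lower, Itgax (0.83) and H2-Ab1 (0.27) were called higher, and Flt3, H2-Aa and Cd74 were not called. H2-Ab1 was not called with scaling to total counts (0.01), with quantile normalisation (0.13) or without control replicate 3 (0.25). The summed level of 11 plasmacytoid markers ranged from 7131 to 7345 in control and from 2353 to 2524 in midkine cultures, and 9 of the 11 were called lower. For 8 type 1 conventional dendritic cell markers the sums were 24451 to 28770 and 12997 to 14825, with all 8 called lower. Of these, Batf3 was not called in DESeq2, with quantile normalisation, or without replicate 1 or 3 of either group. Early B cell markers summed to 275 to 483 and 126 to 167, with 4 of 6 tested called lower, and Vpreb1 among them was at 0 in every midkine library. Ebf1 was not called without control replicate 2 or 3 or midkine replicate 3. Pax5, not called in the main fit, was called lower with scaling to total counts or without replicate 1 of either group. Of 9 progenitor and granulocyte precursor markers, 4 were tested, with sums over the 9 of 495 to 530 in control and 312 to 389 in midkine cultures. Myb (-2.71) and Kit (-0.44) were called lower, Mpo was not called, and Cd34 was called higher at 0.76 but not with scaling to total counts (0.51). Gfi1 was at 0 in all 6 libraries. Stromal markers summed to 9352 to 11193 in control and 24288 to 28634 in midkine cultures, with 6 of 7 called higher, and 4 of 8 macrophage markers were called lower and 2 higher (sums of 3359 to 4489 and 2671 to 2775). The stromal marker Pdgfrb was not called with scaling to total counts or without control replicate 1 or midkine replicate 2. With scaling to total counts the macrophage marker Adgre1 was no longer called higher and Fcgr1 was called lower. Erythroid and T or natural killer cell markers summed to at most 10.1 and 5.50 in any library. Mitochondrial ribosomal RNA took 9.33% to 9.86% of reads in control and 18.1% to 20.9% in midkine libraries. The part of these shifts in the fall of the replication genes was not tested.

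The MCM helicase genes fell together, all 6 of them. These proteins form the hexameric ring that unwinds DNA at the fork. Mcm7 (chromosome 5, 138164583 to 138172422, GRCm38) was at 1179, 1238 and 1271 normalised read counts in control and at 518, 435 and 506 in midkine cultures. The 3 midkine values were far below the lowest control value, a 2.53-fold fall (log2 fold change -1.34, SE 0.09, limma adjusted p = 2.5e-12). Exons of Mcm7 overlap those of Ap4m1 and Cops6 on the other strand. Mcm5 (chromosome 8, 75109569 to 75128439) was at 389, 405 and 378 in control and at 184, 160 and 175 in midkine cultures, a 2.26-fold fall (log2 fold change -1.17, SE 0.10, limma adjusted p = 7.4e-10). Its groups were each tight and lay far apart. Mcm6 (-1.06), Mcm2 (-1.12) and Mcm4 (-0.98) fell by similar amounts on the log2 scale, and Mcm3 fell least of the 6 at -0.87 (SE 0.10). Mcm2 was at 85.6, 140 and 126 with midkine, replicate 1 being the lowest.

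The helicase activators also fell, apart from 1 GINS subunit. GINS, a complex of 4 small subunits, and Cdc45 bind the MCM ring to make the active helicase, and Mcm10 is needed to start unwinding. Mcm10 was at 128, 117 and 114 normalised read counts in control and at 50.7, 48.6 and 47.4 in midkine cultures (2.41-fold lower, log2 SE 0.15, limma adjusted p = 1.9e-07). The midkine values of Mcm10 differed little from one another. Cdc45, whose exons overlap Ufd1 on the other strand, was at 71.8, 54.1 and 57.3 in control and at 36.1, 22.9 and 20.2 in midkine cultures (log2 fold change -1.21, SE 0.23). Its lowest control value exceeded its highest midkine value.

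Among the GINS genes Gins1 (-0.87), Gins2 (-0.82) and Gins4 (-0.52) fell on the log2 scale. Without control replicate 2, which had the highest Gins4 value, Gins4 was at -0.38 and not called (limma adjusted p = 0.102). Gins3 was at 71.8, 77.4 and 70.9 in control and at 63.1, 52.2 and 63.6 in midkine cultures. The groups of Gins3 did not overlap but lay close, and it was not called (log2 fold change -0.30, SE 0.16, limma adjusted p = 0.15).

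Origin licensing genes split into those that fell and those that did not pass the test. Cdc6, the ATPase that loads the helicase, was at 150, 142 and 165 normalised read counts in control and at 73.2, 56.8 and 58.5 in midkine cultures. This was a 2.41-fold fall (log2 SE 0.15, limma adjusted p = 9.7e-08) with groups far apart. Gmnn encodes geminin, the inhibitor of Cdt1 that prevents a second round of loading. Gmnn was at 162, 134 and 144 in control and at 69.9, 59.6 and 66.6 in midkine cultures (log2 fold change -1.15, SE 0.14, limma adjusted p = 3.1e-07), again without overlap. Its target Cdt1 was at 299, 262 and 223 in control and at 220, 216 and 233 in midkine cultures. The highest midkine value of Cdt1 was above the lowest control value, and it was not called (log2 fold change -0.22, SE 0.11, limma adjusted p = 0.12). Without control replicate 3, the lowest of the controls, Cdt1 was called at -0.33 (limma adjusted p = 0.037). On the log2 scale the change of Gmnn was 0.93 below that of Cdt1; in single libraries this contrast ran from -0.13 to 0.20 in control and from -1.02 to -0.81 in midkine cultures. That pair was chosen after its values were seen, and its difference was not tested.

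The genes of the origin recognition complex among the 44, Orc1, Orc2 and Orc6, changed less evenly. Outside the 44, Orc4 was called lower (-0.46 on the log2 scale), but not without midkine replicate 1 (-0.29). Orc3 (-0.09) and Orc5 (-0.15) were not called, though Orc3 was called lower with scaling to total counts (-0.35). Orc6 averaged 97.3 ± 14.2 normalised read counts (SD, n = 3) in control and 65.1 ± 1.70 with midkine, a fall called at a limma adjusted p of 0.0050 (log2 fold change -0.56). Exons of Orc6 overlap Vps35 on the other strand. Orc2 was at 157, 139 and 146 in control and at 133, 159 and 123 in midkine cultures. Its highest value of all 6 was a midkine one, and its log2 fold change of -0.09 (SE 0.13) was the smallest of the 44. Exons of Orc2 overlap Nif3l1 on the other strand. Orc1, the subunit that varies with the cell cycle, was at 25.5, 18.7 and 9.38 in control and at 6.76, 10.1 and 10.1 in midkine cultures. The controls of Orc1 were spread widely, its groups overlapped and it was not called (log2 fold change -0.83, SE 0.38, limma adjusted p = 0.079). Orc1 had the fewest reads of the 44 genes, 56 in all control and 27 in all midkine libraries, and was called without control replicate 3 (-1.21, limma adjusted p = 0.015) and in edgeR (-0.98, adjusted p = 0.041).

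Both genes of the kinase that fires origins fell. Dbf4, the regulatory subunit, was at 391, 336 and 332 normalised read counts in control and at 248, 195 and 218 in midkine cultures (1.60-fold lower, log2 SE 0.11, limma adjusted p = 1.4e-05). Cdc7, the catalytic subunit, was at 47.2, 54.1 and 47.9 in control and at 14.6, 34.8 and 25.2 in midkine cultures (log2 fold change -1.05, SE 0.25, limma adjusted p = 0.0016). The midkine values of Cdc7 were spread over a wide range, all below control. Midkine replicate 1 was the lowest for Cdc7, Mcm2 and Pole2, and it held 13, 76 and 8 reads of them.

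The sliding clamp gene fell, and the 5 subunits of its loader did not do so uniformly. Pcna encodes the ring that tethers polymerases to DNA. It was at 374, 420 and 385 normalised read counts in control and at 242, 241 and 237 in midkine cultures, with almost no spread in the latter (1.63-fold lower, log2 SE 0.10, limma adjusted p = 1.4e-06). In replication factor C, which opens and loads the clamp, Rfc3 was at 183, 176 and 159 in control and at 90.1, 104 and 89.8 in midkine cultures (log2 fold change -0.87, SE 0.13, limma adjusted p = 5.0e-06). Rfc5 fell by 0.78 and Rfc4 by 0.57 on the log2 scale, and exons of both overlap a gene on the other strand. The Rfc4 call was lost without control replicate 2 (-0.58, limma adjusted p = 0.0729), control replicate 3 (-0.41, 0.205), midkine replicate 1 (-0.50, 0.102) or midkine replicate 2 (-0.57, 0.0658), and in DESeq2 (-0.59, adjusted p = 0.105).

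The other loader subunits were not called. Rfc1, the large subunit, was at 820, 879 and 835 in control and at 802, 724 and 675 in midkine cultures, with a gap between the groups smaller than the spread within them. Its log2 fold change was -0.21 (SE 0.08, limma adjusted p = 0.051). Exons of Rfc2 overlap Lat2 on the other strand. Rfc2 was at 294, 323 and 330 in control and at 274, 264 and 275 in midkine cultures. Its log2 fold change was -0.22 (SE 0.10, limma adjusted p = 0.075). Both lay next to the threshold: Rfc1 was called without control replicate 1 (-0.23, limma adjusted p = 0.045) or midkine replicate 1 (-0.27, 0.019), and Rfc2 without control replicate 1 (-0.27, 0.039).

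All 4 genes of polymerase alpha-primase, which lays down the RNA-DNA primers, fell. Pola1, the catalytic subunit, was at 430, 436 and 422 normalised read counts in control and at 286, 230 and 236 in midkine cultures (1.72-fold lower, log2 SE 0.10, limma adjusted p = 6.5e-07). Prim2, the large primase subunit, was at 40.6, 47.6 and 42.7 in control and at 20.3, 18.3 and 17.2 in midkine cultures (log2 fold change -1.19, SE 0.23, limma adjusted p = 0.00018). Neither gene had overlapping groups. Pola2 (-1.06, SE 0.27) and Prim1 (-0.68, SE 0.14) fell too.

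In the elongating polymerases, both epsilon genes fell and 1 of the delta pair did. Pole encodes the catalytic subunit of the leading-strand polymerase and was at 61.4, 86.8 and 64.6 normalised read counts in control and at 37.2, 26.6 and 40.4 in midkine cultures (log2 fold change -1.01, SE 0.20, limma adjusted p = 0.00024). Pole2 fell by 1.28 (SE 0.30), on 118 reads in all control and 51 in all midkine libraries. Pold1, the catalytic subunit of the lagging-strand polymerase, was at 174, 138 and 156 in control and at 100, 120 and 89.8 in midkine cultures (log2 fold change -0.59, SE 0.14, limma adjusted p = 0.0011). Its groups did not overlap. Pold2, an accessory subunit, was at 99.2, 85.8 and 89.6 in control and at 100, 64.1 and 53.5 in midkine cultures. Midkine replicate 1 lay above all controls for Pold2, and the gene was not called (log2 fold change -0.38, SE 0.18, limma adjusted p = 0.10). Without that library it was called at -0.63 (limma adjusted p = 0.0062).

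The genes that finish Okazaki fragments fell by similar amounts. Lig1 (chromosome 7, 13277283 to 13311433), which seals the nicks, was at 1918, 2153 and 2200 normalised read counts in control and at 1131, 1014 and 1055 in midkine cultures (1.96-fold lower, log2 SE 0.08, limma adjusted p = 2.8e-10). Fen1, the nuclease that trims the flaps, was at 244, 213 and 191 in control and at 107, 117 and 107 in midkine cultures (1.94-fold lower, SE 0.12, limma adjusted p = 6.7e-07). In both genes the controls lay far above the midkine values. Exons of Lig1 overlap Zswim9 and those of Fen1 Tmem258, each on the other strand.

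Replication protein A, the trimer that coats single-stranded DNA, was uneven. Rpa2, the middle subunit, was at 484, 521 and 470 normalised read counts in control and at 291, 233 and 306 in midkine cultures (1.79-fold lower, log2 SE 0.10, limma adjusted p = 3.3e-07). Rpa1, the large subunit, was at 191, 215 and 191 in control and at 144, 153 and 156 in midkine cultures, a smaller fall of 0.39 on the log2 scale (SE 0.11, limma adjusted p = 0.0074). Neither overlapped. Rpa3, the small subunit, was at 42.5, 42.0 and 38.6 in control and at 31.6, 33.0 and 37.3 in midkine cultures. These groups nearly touched, and Rpa3 was not called (log2 fold change -0.27, SE 0.21, limma adjusted p = 0.31).

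All 4 deoxynucleotide enzymes fell, and the regulatory subunit of ribonucleotide reductase fell furthest of the 44 genes. Ribonucleotide reductase turns ribonucleotides into deoxynucleotides. Rrm2 (chromosome 12, 24708241 to 24714146), its S-phase subunit, was at 267, 244 and 250 normalised read counts in control and at 123, 95.3 and 81.7 in midkine cultures (2.56-fold lower, log2 fold change -1.35, SE 0.13, limma adjusted p = 8.1e-09). Rrm1, the large subunit, was at 553, 564 and 634 in control and at 357, 345 and 354 in midkine cultures (1.65-fold lower, log2 SE 0.09, limma adjusted p = 3.2e-07). Both had a wide gap between groups. Tyms, thymidylate synthase, fell by 1.20 (SE 0.17) and the salvage enzyme gene Tk1, whose exons overlap Afmid on the other strand, by 0.64 (SE 0.13).

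Ordered by size, the changes ran from Rrm2 and Mcm7 at the low end to Rfc1 and Orc2 at the other. Each gene differed from the next in that order by less than the larger of their standard errors, which ranged from 0.08 to 0.38. The genes not called were at the shallow end, 7 of the 8 being the last in the order, and Orc1 was the exception with the largest standard error.

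**Figure D2:**
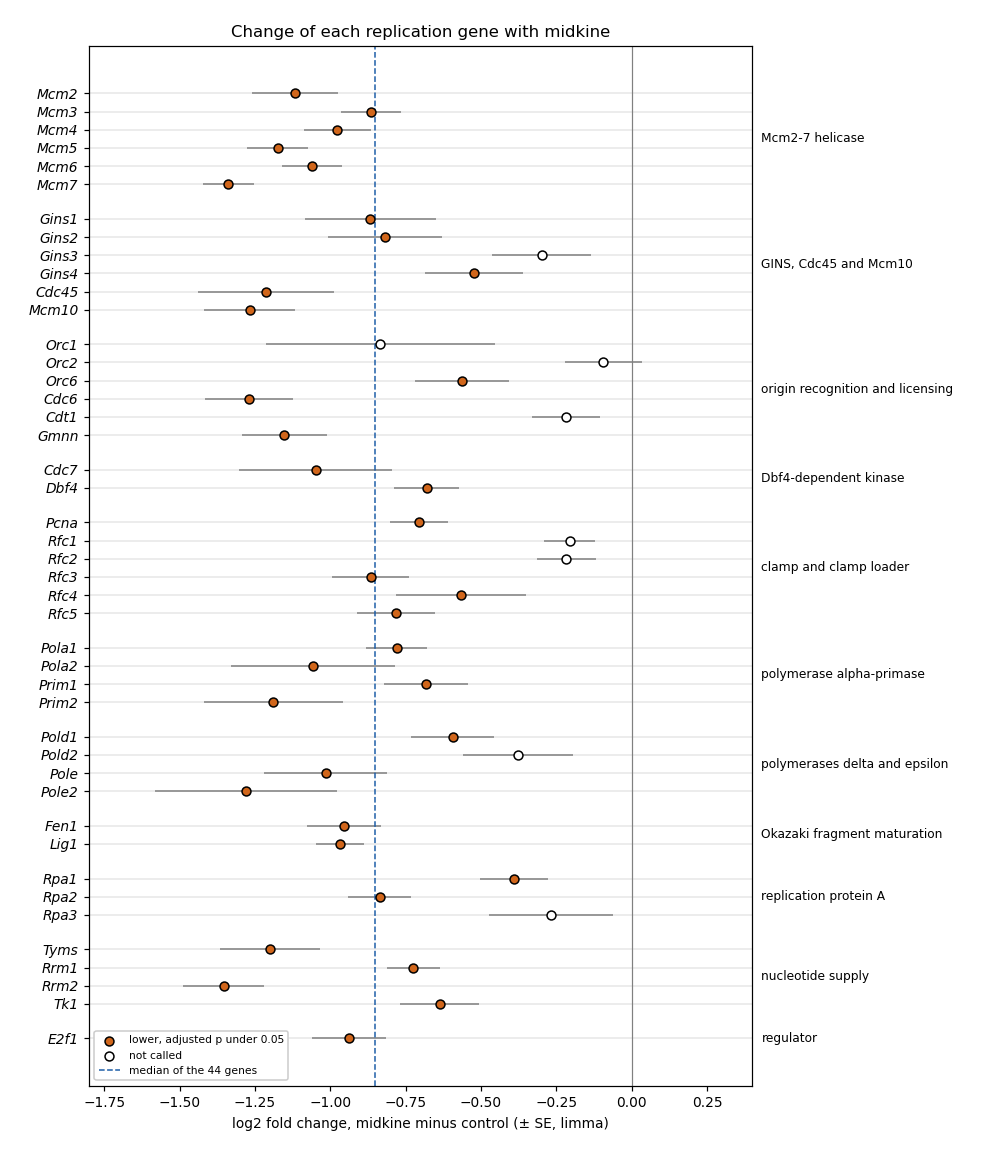
Log2 fold change of each gene, midkine minus control (x axis), with its standard error from limma as a bar; filled points were called lower and open points were not called, and the dashed line is the median of the 44 genes at -0.85. All 44 points lie below 0, and the open points other than Orc1 lie between -0.38 and -0.09.

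The regulator E2f1 (chromosome 2, 154559407 to 154569892) fell with them. It was at 217, 253 and 225 normalised read counts in control and at 130, 130 and 103 in midkine cultures (1.92-fold lower, log2 SE 0.12, limma adjusted p = 8.7e-07). All control values exceeded all midkine values by a wide margin. E2F proteins bind promoters of S-phase genes at sites of the forms TTTCCCGC and TTTGGCGC, so the starts of the 44 genes were searched for these letters on both strands. RefSeq promoter windows of GRCm38.p6, from 250 bases before to 50 after a start, were matched for 36 of the 44 genes, leaving out Gins1, Gins2, Gins4, Gmnn, Mcm4, Pole, Prim2 and Rfc2.

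Of the 36 genes, 11 held an E2F motif (30.6%), compared with 3.66% of 8837 tested genes with a window and 1.80% of all 27025 genes with windows of that length. The motif was held by 9 of the 29 genes called lower and by 2 of the 7 not called, Gins3 and Cdt1. E2f1 itself had none of these letters in its window. The CCAAT box, bound by NF-Y, was in 22 of the 36 genes (61.1%), against 43.1% of tested and 41.1% of all genes. The letters TTTGAA, a core form of the cell cycle homology region, were in 7 of the 36 (19.4%), against 14.4% and 20.2%. None of the motifs contains another, and a match is a description of the letters and not evidence of binding. The base composition of the windows was not compared. Shares are of genes with at least 1 match in any window listed for them.

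The windows of 4 genes that fell are shown because their E2F motif lies upstream of the RefSeq start, in a stretch that no annotated exon overlaps. For Cdc6 the stretch lies within the gene as GENCODE vM21 gives it (chromosome 11, 98907801 to 98923940), downstream of an earlier annotated start. Capitals mark the motif, which reads TTTCCCGC or TTTGGCGC on one strand and GCGGGAAA or GCGCCAAA on the other. Cdc6 is shown from chr11:98907982-98908051 on the plus strand, Mcm5 from chr8:75109304-75109423 on the plus strand, Mcm6 from chr1:128359706-128359825 on the minus strand and Pola1 from chrX:93632230-93632349 on the minus strand, each written 5′ to 3′ along the gene.
Cdc6: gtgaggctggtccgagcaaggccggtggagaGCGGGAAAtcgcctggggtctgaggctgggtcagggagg
Mcm5: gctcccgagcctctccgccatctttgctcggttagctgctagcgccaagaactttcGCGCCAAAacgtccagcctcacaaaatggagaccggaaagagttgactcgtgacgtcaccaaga
Mcm6: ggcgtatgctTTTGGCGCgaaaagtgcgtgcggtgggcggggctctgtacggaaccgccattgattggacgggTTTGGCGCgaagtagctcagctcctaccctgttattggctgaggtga
Pola1: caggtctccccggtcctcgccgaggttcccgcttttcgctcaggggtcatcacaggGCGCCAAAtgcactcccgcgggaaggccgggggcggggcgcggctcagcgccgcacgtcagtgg

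Mcm6 held the motif in duplicate, at -110 and -47 bases from its start. The Mcm5 motif was at -149 and those of Cdc6 and Pola1 at -138. Their log2 fold changes were -1.27 for Cdc6, -1.17 for Mcm5, -1.06 for Mcm6 and -0.78 for Pola1. Mcm7 also holds an upstream motif, at -165, but that stretch overlaps annotated exons and is not printed.

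**Figure D3:**
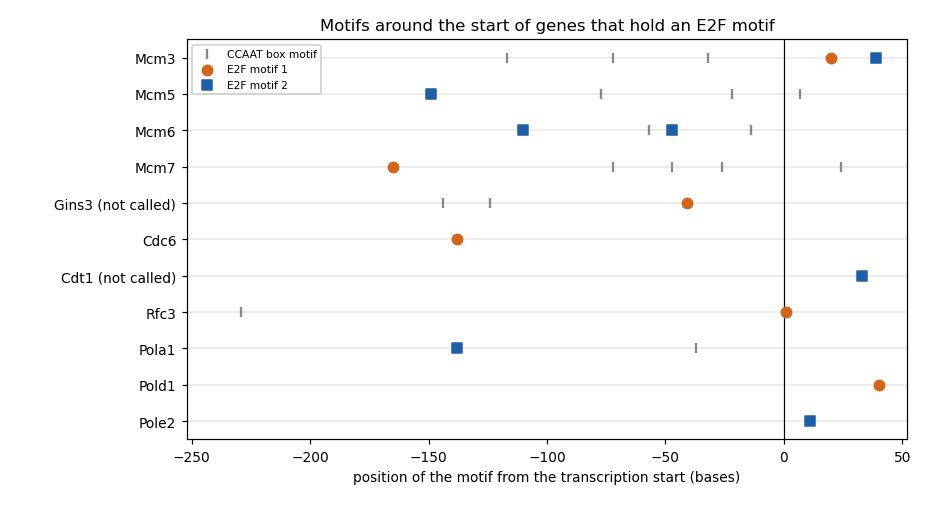
Positions of E2F motif 1 (TTTCCCGC, circles), E2F motif 2 (TTTGGCGC, squares) and the CCAAT box (bars), on either strand, in the windows of the 11 genes that hold an E2F motif; the x axis is the distance of the leftmost base from the transcription start in bases, the start itself being 1. Motifs lie on both sides of the start, and the E2F motifs range from -165 in Mcm7 to 40 in Pold1.

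Other genes of the pathway mostly moved the same way, with exceptions that the 44 genes did not show. Of 18 further origin and fork genes 11 were called lower and none higher (median log2 fold change -0.52). Wdhd1, which links the helicase to polymerase alpha, averaged 364 ± 12.0 in control and 143 ± 19.3 normalised read counts with midkine (SD, n = 3 each; log2 fold change -1.34, SE 0.11, limma adjusted p = 4.3e-10), and the fork checkpoint genes Clspn (-1.06) and Tipin (-0.92) fell too. Of 19 other polymerase, clamp and fragment maturation genes 10 were lower and 2 higher (median -0.39). Pclaf, a partner of the clamp, fell by 1.23 and the flap nuclease gene Dna2 by 0.96 on the log2 scale. Pold4, the smallest polymerase delta subunit, went the other way, from 90.7, 114 and 123 in control to 251, 228 and 195 in midkine cultures (log2 fold change 1.04, SE 0.13, limma adjusted p = 5.8e-07). Its midkine values were all higher than its control values. Polk, a translesion polymerase gene, was called higher at 0.49 but not with scaling to total counts (0.23) or without midkine replicate 1 (0.40) or 3 (0.43).

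Of 12 genes for chromatin assembly and copying of DNA methylation at the fork, 9 were lower and none higher (median -0.56). Uhrf1, which brings the maintenance methyltransferase to new DNA, fell by 1.30, the histone chaperone gene Nasp by 1.02 and the chromatin remodeller gene Hells by 0.92. Of 15 checkpoint and fork repair genes 10 were lower and none higher (median -0.63), among them the nuclease gene Exo1 (-1.26) and the checkpoint kinase gene Chek1 (-0.94). Requiring a mean of at least 50 left 5 of these called.

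Nucleotide enzymes outside the 44 genes diverged. Of 18 tested genes of thymidylate and deoxynucleotide supply 10 were lower and 2 higher (median -0.47). Cmpk2, a mitochondrial kinase gene that interferon also induces, fell by 2.66. Mthfd2, the mitochondrial one-carbon enzyme, was at 611, 550 and 559 in control and at 1230, 1269 and 1218 in midkine cultures (log2 fold change 1.11, SE 0.08, limma adjusted p = 2.4e-11). The groups of Mthfd2 lay far apart, with every midkine value above every control value. Dguok, a mitochondrial salvage kinase, was called higher at 0.47, but not with scaling to total counts (0.21) or without control replicate 2 (0.30). Rrm2b, the reductase subunit used outside S phase, was not called at 0.25 (limma adjusted p = 0.25); it is named after its value was seen, for its relation to Rrm2.

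In purine and pyrimidine synthesis 7 of 17 genes were lower and 2 higher (median -0.19). Atic fell by 0.91 and Ppat, the first committed enzyme of purine synthesis, by 0.83. Impdh1 (0.81) and Ctps (0.58), which make guanine and cytosine nucleotides, rose. The related genes Impdh2 (-0.17) and Ctps2 (0.09) were not called, though Impdh2 was called lower with scaling to total counts (-0.43). In control Impdh2 averaged 236 normalised read counts and Impdh1 60.1. The 7 became 2 without midkine replicate 3, 3 without control replicate 2, 4 without control replicate 3, 2 in DESeq2 and 13 with scaling to total counts.

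Of 19 E2F, retinoblastoma family and G1/S genes 11 were lower and 1 higher (median -0.50). Ccna2, cyclin A, fell by 1.13, the mitotic inhibitor gene Fbxo5 by 1.00 and the repressor gene E2f8 by 0.94 on the log2 scale. Rb1, which encodes the retinoblastoma protein, was at 222, 206 and 180 in control and at 265, 265 and 265 in midkine cultures (log2 fold change 0.39, SE 0.11, limma adjusted p = 0.0048). Its midkine values were nearly identical and above control, but with scaling to total counts it was at 0.13 and not called (limma adjusted p = 0.35). Of 24 genes of mitosis 23 were called lower and none higher, at a median of -0.80, beside 36 of the 44 replication genes. Birc5 (-0.96), Top2a (-0.79) and Kif11 (-1.21) were those with the smallest p, and no difference between the replication and mitosis lists was tested. The Aurka call (-0.35, limma adjusted p = 0.049) was lost in DESeq2, edgeR, quantile normalisation and without any library but midkine replicate 3, among other alternatives. Cenpa, the gene not called (-0.22), was called lower with scaling to total counts (-0.48), also with ribosomal RNA left out (-0.30), and without control replicate 3 (-0.33).

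**Figure D4:**
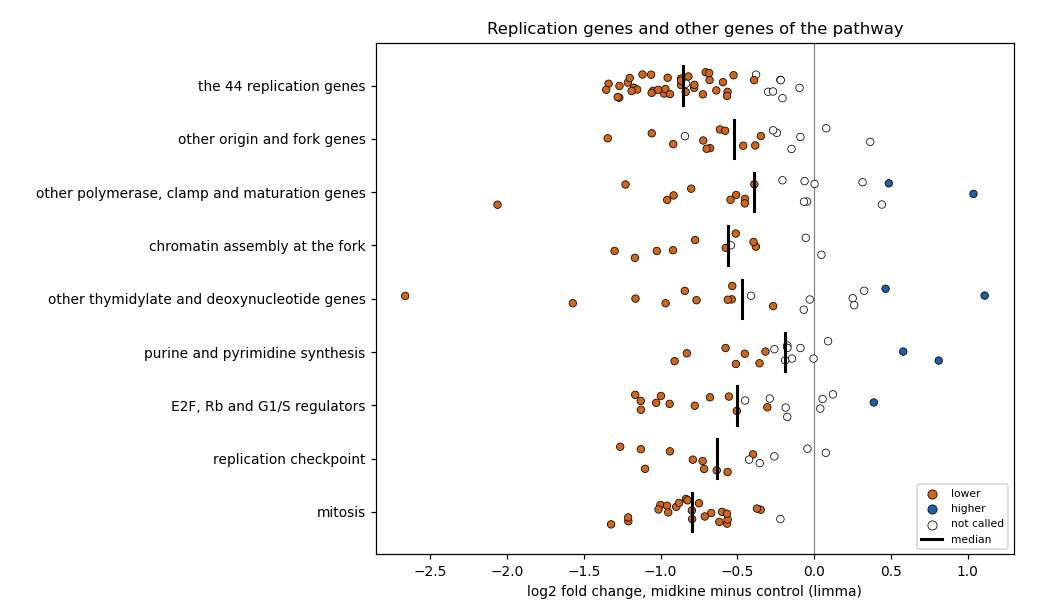
Log2 fold change, midkine minus control (x axis), of the 44 replication genes and of 8 lists of other genes; points are genes, coloured by the limma call, and black bars are list medians, from -0.85 for the replication genes and -0.80 for mitosis to -0.19 for purine and pyrimidine synthesis. Genes called higher (blue) occur in 4 lists and not among the 44 genes.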

How the data were processed

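RNA from 3 control and 3 midkine cultures (500 ng of total RNA) was sequenced as 3' tags with a forward QuantSeq kit on an Illumina HiSeq, per the labels' protocols, so counts do not scale with transcript length. The submitters' processing notes name HTSeq, DESeq2, Bowtie 1.0.0, TopHat2 2.0.10 and SAMtools 0.1.19, and the builds GRCm38 and mm10. Annotation and strand setting: not given in the sources used here. RNA integrity is given with the same values for every sample, a mean of 8 and a range from 5 to 10. Integrity of single libraries is therefore not known, and its part in the fall was not tested.

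Per gene, the authors deposited a signal, the normalised read count. All values, 100% of them, were whole multiples of the value of 1 read in that library (0.916 to 1.13) within 1e-06 reads, so reads were recovered. Libraries of a group differed by more than counting noise (chi-square per degree of freedom 2.31 to 10.6). No molecular identifiers are named, so counting precision ignores duplicates.

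Genes with a mean of at least 10 were tested with limma 3.58.1 (R 4.3.3, variance trend) on log2(value + 1), which understates changes of low genes, at a Benjamini-Hochberg adjusted p under 0.05. In data simulated for midkine against control (11855 genes), the test recovered 19 of 67 genes with a true 1.5-fold change, 56 of 67 at 2-fold and 66 of 66 at 4-fold, and made 7 false calls. Those counts are for few changed genes, 67 or 66 at each fold change. The simulation gave every gene the same dispersion, which was set in advance and not estimated from these libraries. Recovery in the libraries themselves, where 5059 of 11844 genes were called, was not tested. Alternatives used edgeR 4.0.16 and DESeq2 1.42.0 on recovered reads, other pseudocounts (0.5, 5), filters and scalings, a replicate block, and each library left out.

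The 44 genes and the lists were chosen with earlier results of these data known. Values in every sample are given for the 2 genes of smallest p in each complex and for genes not called, and otherwise where spread matters. Up to 3 called genes of smallest p are named per list, with those of opposite direction; some genes the rule names are not reported here. Positions are from GENCODE vM21 (GRCm38). Exons of 11 of the 44 genes overlap a tested gene on the other strand, where reads cannot be told apart without strand. Overlap was counted anywhere in the gene, and whether it reaches the 3' end, where the tags lie, was not examined. Promoters are from RefSeq.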

Additional observations from a re-analysis of the deposited data

How the results depend on the processing

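All 44 genes kept their direction in each of the 17 alternatives that tested them, and none was called higher in any. Of the 36 calls, 34 held in every alternative that tested the gene, the exceptions being Gins4 and Rfc4. All 8 genes not called were called in at least 1 alternative, but Gins3, Orc2 and Rpa3 only with scaling to total counts. The number called lower was 34 to 38 over the libraries left out, 37 in edgeR and 35 in DESeq2. Scaling to total counts gave 44 calls, with 1283 genes higher and 4817 lower over all genes (21.0% of calls higher, against 49.0%, and 38.9% with ribosomal RNA left out of the totals), a median of all genes of -0.26 and a median of the 44 genes of -1.11, or -0.84 relative to all genes. Leaving ribosomal RNA out of the totals gave a median of -0.93 for the 44 genes with 40 calls, and shares of 0.297% in control and 0.160% in midkine cultures, against 0.241% and 0.115%. Leaving out each library gave medians from -0.92 to -0.81. With the replicate number as a block, 37 of the 44 were called (Rfc1 added, adjusted p = 0.047) and 5160 genes in all, against 5059; same-numbered samples did not deviate together (correlations -0.01, 0.03 and -0.06), so the numbers were not taken as pairs. Raising the minimum mean to 50 left 35 of the 44 genes tested. Read depth limits Orc1, with 6 to 27 reads per library.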
